A study of Mus musculus with 12 samples.

Results

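The 10 genes described here encode interleukin-1 family cytokines, their antagonist and receptors, and the core of the inflammasome. They were chosen by symbol, with earlier results of these data known. They are Il1a, Il1b, Il18 and Il1rn (4 ligand or antagonist genes), Il1r1, Il1r2 and Il1rap (3 receptor genes), and Casp1, Nlrp3 and Pycard (3 inflammasome genes). All 10 were among the 23420 symbols of the deposited table, and all 10 were above 0 in at least 3 of the 12 libraries, the filter that left 10023 genes to test. RNA came from epidermal cells of mice sorted by flow cytometry for CD45, CD11b and MHC class II and against CD3, with 100 cells in each tube. The 4 groups were Cbfβ2 knockout mice at 1.5 months (1.5M KO), wild-type mice at 1.5 months (1.5M wt), Cbfβ2 knockout mice at postnatal day 5 (P5 KO) and wild-type mice at day 5 (P5 wt). Each group had 3 libraries, which the labels call independent preparations. Strain, sex, the construction of the knockout and the number of animals were not stated, so the p-values measure the spread between these preparations.

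Cbfβ is the partner protein that helps Runx transcription factors bind DNA, and Cbfβ2 is one of its splice forms. Interleukin-1α and interleukin-1β act through the receptor IL1R1 and its partner IL1RAP, while the decoy receptor IL1R2 binds interleukin-1 without signalling and the antagonist made from Il1rn occupies IL1R1. Interleukin-1β and interleukin-18 are made as precursors that caspase-1 cuts once a sensor such as NLRP3 has assembled with the adaptor ASC, the product of Pycard. In epidermis, Langerhans cells are a known source of interleukin-1β, and keratinocytes store interleukin-1α. Transcript levels do not show cleavage or release of these proteins.

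Values are molecule counts scaled to a total common to all libraries, called scaled counts below. Libraries of 1.5M KO were the deepest, with 74620 to 77420 molecules each, beside 40254 to 51848 for 1.5M wt. Those from day 5 held 30913 to 51001 molecules for P5 KO and 34192 to 52208 for P5 wt. Cbfb, whose 3′ tag does not separate the Cbfβ2 form, had 1.92, 0.99 and 2.40 scaled counts in 1.5M KO against 13.82, 7.15 and 10.66 in 1.5M wt, and 3.63, 1.45 and 2.40 in P5 KO against 4.97, 4.34 and 3.91 in P5 wt. The T-cell gene Cd3e was at 0 in every library, and Cd3d had 1.20 in P5 KO library 3. The summed level of 6 T-cell markers was 1.49 to 3.84 in 1.5M KO against 0.715 to 3.69 in 1.5M wt. Only 1 of the 6 was above 0 in each of these groups, with Cd3e, Cd3d, Cd3g, Cd8a and Lck at 0. At day 5 the T-cell sum was 0 to 2.40 in P5 KO, with 2 of 6 above 0, against 0 to 0.977 in P5 wt, with 1 of 6 above 0. The Langerhans-cell gene Cd207 was at 0 in all P5 KO libraries, against 0.71, 1.08 and 2.93 in P5 wt. At 1.5 months it had 18.70, 19.39 and 24.91 in 1.5M KO against 188.90, 201.03 and 252.33 in 1.5M wt. The summed level of 9 Langerhans-cell markers was 36.3 to 51.3 in 1.5M KO against 415 to 509 in 1.5M wt, and 14.0 to 24.1 in P5 KO against 72.7 to 78.1 in P5 wt. The summed level of 14 monocyte and macrophage markers was 515 to 606 in 1.5M KO against 78.7 to 97.3 in 1.5M wt, and 201 to 230 in P5 KO against 145 to 179 in P5 wt. In tubes of pooled cells, fewer cells of a type and less RNA per cell cannot be told apart.

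**Figure D1:**
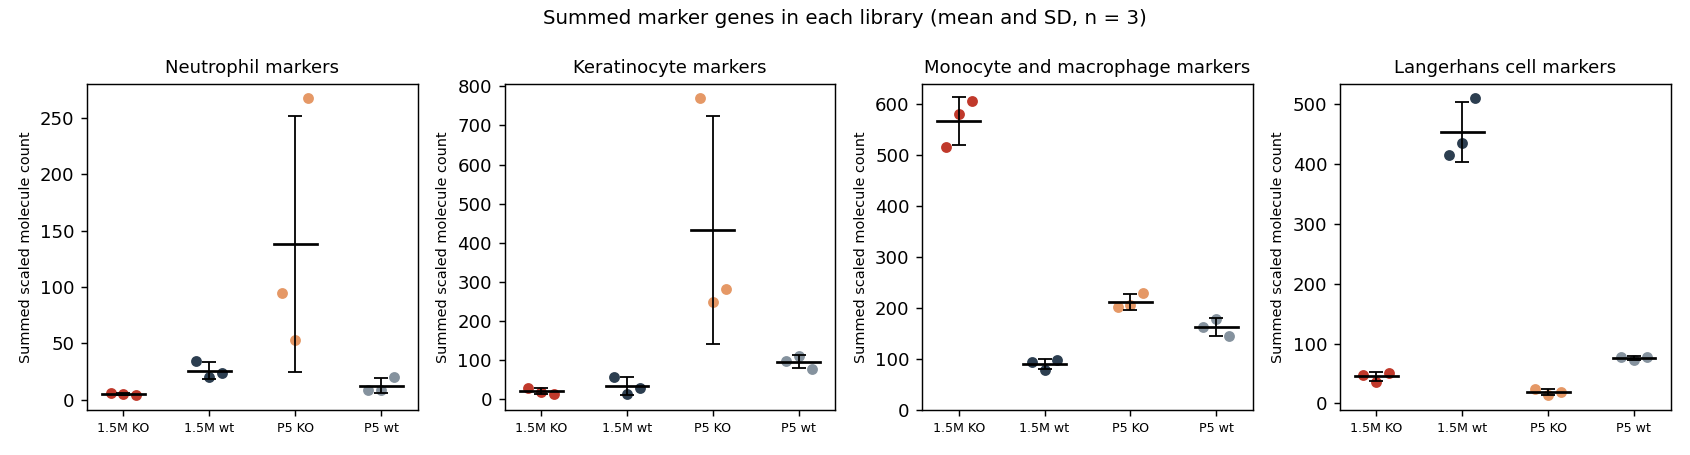
Summed scaled counts of marker genes in each library (points), with the mean and SD of the 3 libraries of a group. Langerhans-cell markers are highest in 1.5M wt at 415 to 509, and neutrophil markers are highest in P5 KO at 52.6 to 267.

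Il1b and Il1r2 carried most of the signal of the 10 genes, and Il1rn was the member called in the knockout comparison at both ages. The 250 bases before a RefSeq start of these 3 genes are therefore shown, with those of Il18, the single member in which the Runx motif searched was found. The sequences are from RefSeq on build GRCm38.p6, read 5′ to 3′ on the strand of the gene, and the last base is position −1. Capitals mark matches to 5 motifs searched on both strands: TGTGGT for Runx factors, GAGGAA for PU.1, GGGA and CC with any 4 bases between them for NF-kB, TGANTCA for AP-1 and TATAAA for the TATA box.
Il1b, chr2:129371140-129371389, minus strand: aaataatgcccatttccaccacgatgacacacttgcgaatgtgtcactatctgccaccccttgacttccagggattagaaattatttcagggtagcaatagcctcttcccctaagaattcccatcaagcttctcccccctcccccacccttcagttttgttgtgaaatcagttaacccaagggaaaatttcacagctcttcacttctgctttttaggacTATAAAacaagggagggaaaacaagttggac
Il1r2, chr1:40085843-40086092, plus strand: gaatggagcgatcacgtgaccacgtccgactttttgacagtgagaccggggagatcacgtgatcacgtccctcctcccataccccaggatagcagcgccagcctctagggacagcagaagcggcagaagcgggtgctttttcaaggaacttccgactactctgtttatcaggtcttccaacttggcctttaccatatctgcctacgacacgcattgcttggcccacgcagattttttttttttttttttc
Il1rn, chr2:24336610-24336859, plus strand: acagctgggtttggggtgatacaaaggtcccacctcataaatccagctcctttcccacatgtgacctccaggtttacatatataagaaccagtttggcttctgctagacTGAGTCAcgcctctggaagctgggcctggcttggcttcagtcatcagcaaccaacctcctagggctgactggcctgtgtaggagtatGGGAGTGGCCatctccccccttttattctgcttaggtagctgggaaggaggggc
Il18, chr9:50554450-50554699, plus strand: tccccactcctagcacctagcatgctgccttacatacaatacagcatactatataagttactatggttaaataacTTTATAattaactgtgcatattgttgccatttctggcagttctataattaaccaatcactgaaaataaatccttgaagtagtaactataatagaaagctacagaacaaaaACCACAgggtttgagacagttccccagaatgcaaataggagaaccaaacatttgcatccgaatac
Il1b held a TATA match at −31 to −26 and no other. Il1r2 held none of the 5 motifs in this window, which lies inside the gene as annotated from 40074079. The bases before 40074079 were not searched. Il1rn held an AP-1 match at −141 to −135 and an NF-kB match at −54 to −45, while the other 2 RefSeq windows of Il1rn held none. Il18 held a Runx match at −65 to −60 and a TATA match at −175 to −170, both on the opposite strand. None of the marked matches overlapped another. RefSeq gave 14 windows for the 10 members, and over 32851 windows of this length in the table the motifs were found in 14.05% (Runx), 23.25% (PU.1), 17.63% (NF-kB), 6.749% (AP-1) and 12.37% (TATA). A match is a description of the letters and not a binding site, and the absence of a match says only that these letters are not in the window.

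Il1b, which encodes interleukin-1β, was the most abundant of the 10 genes in every library. It had 186.54, 214.74 and 277.88 scaled counts in 1.5M KO, 239.58, 132.35 and 219.45 in 1.5M wt, 30.88, 104.73 and 64.79 in P5 KO, and 28.42, 27.12 and 32.23 in P5 wt. All 6 libraries from 1.5 months lay above all 6 from day 5. The group means were 226 ± 46.8 in 1.5M KO against 197 ± 57.0 in 1.5M wt, and 66.8 ± 37.0 in P5 KO against 29.3 ± 2.66 in P5 wt (SD, n = 3 each). The gene lies on GRCm38 chromosome 2 from 129364570 to 129371139 on the minus strand, and an antisense gene, Il1bos, overlaps it. Whether counting used the strand was not given, so RNA of overlapping or antisense genes cannot be told apart.

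Il1b was higher at 1.5 months than at day 5 in both genotypes. The log2 fold change was 2.67 ± 0.29 (SE) in 1.5M wt over P5 wt, with a limma adjusted p of 1.64e-06. It was 1.89 ± 0.29 in 1.5M KO over P5 KO, with a limma adjusted p of 0.000234. Both calls held in all 21 alternative settings, with adjusted p-values of 2.29e-16 to 0.000337 in wild type and 3.06e-10 to 0.0119 in the knockout. The summed level of 13 neutrophil markers was 20.2 to 34.1 in 1.5M wt against 8.75 to 20.03 in P5 wt, and 4.53 to 6.45 in 1.5M KO against 52.6 to 267 in P5 KO. At 1.5 months 3 of the 13 were above 0 in 1.5M wt (Cxcr2, Csf3r and Mmp9) and 2 in 1.5M KO (Cxcr2 and Csf3r). S100a8 and S100a9 were at 0 in both. The summed level of 15 immediate early and stress genes was 543 to 589 in 1.5M KO against 599 to 735 in 1.5M wt, and 358 to 418 in P5 KO against 294 to 398 in P5 wt. The part of these genes in the change with age was not tested.

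Between genotypes, Il1b did not pass the threshold at either age. At 1.5 months the ranges of 1.5M KO and 1.5M wt overlapped, and the log2 fold change was 0.22 with a 95% interval of −0.37 to 0.82 (limma adjusted p = 0.823). Without 1.5M wt library 2, the lowest of the 6, it was −0.04. At day 5 P5 KO libraries 2 and 3 lay above all P5 wt libraries and P5 KO library 1 lay among them, and the log2 fold change was 1.0 ± 0.29 (SE, limma adjusted p = 0.0784). The day 5 difference passed the threshold without P5 KO library 1 (1.47, limma adjusted p = 0.00404), when genes had to be above 0 in at least 6 of 12 libraries (adjusted p = 0.00168), and when the 6 day 5 libraries were fitted alone (adjusted p = 0.00435). The knockout effect at 1.5 months minus that at day 5 was −0.78 ± 0.40 and did not pass (limma adjusted p = 0.421).

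Il1r2, the decoy receptor, was high in a single group. It had 12.47, 11.43 and 6.23 scaled counts in 1.5M KO, 124.40, 124.48 and 151.04 in 1.5M wt, 2.72, 5.82 and 2.40 in P5 KO, and 4.26, 7.59 and 4.88 in P5 wt. The 3 libraries of 1.5M wt stood clear of the other 9, whose highest value was 12.47. The means were 10.04 ± 3.34 in 1.5M KO against 133 ± 15.4 in 1.5M wt, and 3.65 ± 1.89 in P5 KO against 5.58 ± 1.77 in P5 wt (SD, n = 3 each). The gene lies on GRCm38 chromosome 1 from 40074079 to 40125231 on the plus strand, and an antisense gene, Gm16894, overlaps it.

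Il1r2 was lower in 1.5M KO than in 1.5M wt, with a log2 fold change of −3.65 ± 0.32 (SE, limma adjusted p = 4.31e-08). At day 5 the genotypes overlapped, and the log2 fold change in P5 KO over P5 wt was −0.54 with a 95% interval of −1.20 to 0.11 (limma adjusted p = 0.503). The difference between the 2 knockout effects was itself called, at −3.11 ± 0.45 (SE, limma adjusted p = 0.000187). With age, Il1r2 was higher in 1.5M wt than in P5 wt by 4.38 ± 0.32 on the log2 scale (limma adjusted p = 3.51e-09). In the knockout it was higher in 1.5M KO than in P5 KO by 1.27 ± 0.32 (limma adjusted p = 0.0251), where 6.23 in the lowest 1.5M KO library lay just above 5.82 in the highest P5 KO library.

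The 3 calls of Il1r2 that involve 1.5M wt held in every alternative setting, while the change with age in the knockout was lost in 8 of 21. Its adjusted p was 0.142 without 1.5M KO library 1, 0.151 without 1.5M KO library 2, 0.104 without P5 KO library 1 and 0.102 without P5 KO library 3. The Langerhans-cell marker sum given above was likewise highest in 1.5M wt, and the monocyte and macrophage marker sum was lowest there. Their part in the Il1r2 difference was not tested. The number of Il1r2 scaled counts per Il1b scaled count was 0.0668, 0.0532 and 0.0224 in 1.5M KO, 0.519, 0.941 and 0.688 in 1.5M wt, 0.0882, 0.0556 and 0.0370 in P5 KO, and 0.150, 0.280 and 0.152 in P5 wt. This ratio, which does not allow for transcript length, was lower in every knockout library than in every wild-type library of the same age. At day 5 it rests on 2 to 8 Il1r2 molecules a library in P5 KO and 5 to 7 in P5 wt. The ratio was not tested.

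**Figure D2:**
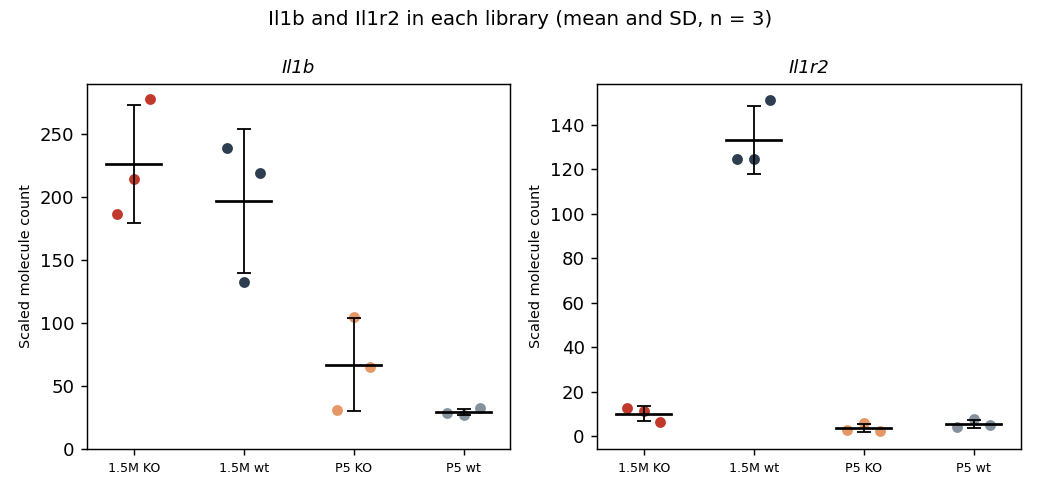
Scaled counts of Il1b and Il1r2 in each library, by group, with the mean and SD of 3 libraries, on linear axes. Il1b is high in both genotypes at 1.5 months, with means of 226 in 1.5M KO and 197 in 1.5M wt, whereas Il1r2 is high in 1.5M wt alone, with a mean of 133 against 10.04 in 1.5M KO.

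Il1rn, which encodes the interleukin-1 receptor antagonist, was higher in the knockout at both ages. It had 7.19, 0.99 and 5.27 scaled counts in 1.5M KO against 0.92, 0 and 0 in 1.5M wt, and 8.17, 10.18 and 4.80 in P5 KO against 2.13, 0 and 0 in P5 wt. The genotypes did not overlap at either age, although 0.99 in the lowest 1.5M KO library was close to 0.92 in the highest 1.5M wt library. The log2 fold change was 1.91 ± 0.56 (SE) in 1.5M KO over 1.5M wt, with a limma adjusted p of 0.0495. It was 2.52 ± 0.56 in P5 KO over P5 wt, with a limma adjusted p of 0.0208. The gene lies on GRCm38 chromosome 2 from 24336853 to 24351494 on the plus strand.

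Both Il1rn calls rest on few molecules. The 1.5-month call was lost in 12 of 21 settings, with adjusted p-values of 0.296 and 0.246 when 1.5M KO library 1 or 3 was left out, 0.178 and 0.169 for 1.5M wt library 2 or 3, and 0.0695, 0.0731 and 0.0570 for P5 KO library 1, 2 or 3. The day 5 call was lost in 7 of 21, with adjusted p-values of 0.0832 and 0.0927 when P5 KO library 1 or 2 was left out, 0.0964 and 0.104 for P5 wt library 2 or 3, and 0.0504 for 1.5M KO library 3. At day 5 the summed level of 13 neutrophil markers was 52.6 to 267 in P5 KO against 8.75 to 20.03 in P5 wt, with 11 of the 13 above 0 in P5 KO and 5 of 13 in P5 wt, and Mpo and Elane at 0 in both. The summed level of 18 keratinocyte markers was 249 to 769 in P5 KO against 78.1 to 111 in P5 wt, with 17 of 18 above 0 in each. The summed level of 6 erythroid markers was 205, 266.9 and 0.792 in P5 KO libraries 1 to 3 against 2.84, 1.09 and 0 in P5 wt libraries 1 to 3. The part of these 3 marker lists in the day 5 values of Il1rn and Il1b was not tested. At 1.5 months the neutrophil sum was 4.53 to 6.45 in 1.5M KO against 20.2 to 34.1 in 1.5M wt. Most of the 1.5M wt sum was Mmp9, which was at 0 in 1.5M KO. In 1.5M wt, Cxcr2 had 8.41, 0.19 and 5.82 and Csf3r had 0.76, 1.43 and 1.78, and the other neutrophil markers were at 0. The keratinocyte sum was 13.9 to 29.3 in 1.5M KO against 13.2 to 58.1 in 1.5M wt. The monocyte and macrophage sum was above its wild-type range in the knockout at both ages, as given above. The part of these lists in the Il1rn values was not tested.

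The remaining ligand genes were low throughout. Il1a, which encodes interleukin-1α, had 2.40, 0.99 and 2.40 scaled counts in 1.5M KO against 0.92, 0.72 and 0.89 in 1.5M wt, and 3.63, 3.64 and 2.40 in P5 KO against 2.13, 1.08 and 0 in P5 wt. Knockout libraries lay above wild-type libraries at each age, but the day 5 log2 fold change of 1.16 did not pass (limma adjusted p = 0.303). Il18, which encodes interleukin-18, had 0.96, 3.48 and 2.87 in 1.5M KO against 6.45, 5.72 and 4.44 in 1.5M wt, and 1.82, 1.45 and 1.20 in P5 KO against 2.84, 3.25 and 1.95 in P5 wt. Knockout libraries lay below wild-type libraries at each age, and the 1.5-month log2 fold change of −1.0 ± 0.41 did not pass (limma adjusted p = 0.218). Bco2 and Tex12 overlap Il18 on the other strand.

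The signalling receptor genes were close to the limit of detection. Il1r1 had 0, 0.50 and 0.48 scaled counts in 1.5M KO, 0.92, 0 and 0 in 1.5M wt, 0.91, 1.45 and 3.60 in P5 KO, and 2.84, 1.08 and 1.95 in P5 wt. The day 5 libraries of each genotype lay above the 1.5-month libraries of the same genotype. Neither change with age passed (limma adjusted p = 0.195 in wild type and 0.32 in the knockout). The lowest day 5 values, 0.91 in P5 KO and 1.08 in P5 wt, are each 1 molecule. The highest 1.5-month values, 0.50 in 1.5M KO and 0.92 in 1.5M wt, are also 1 molecule each. The separation thus rests on how 1 molecule was scaled in each library. Il1rap, the receptor's partner, had 0.96, 0 and 0 in 1.5M KO, 0, 2.86 and 2.67 in 1.5M wt, 0.91, 1.45 and 0 in P5 KO, and 1.42, 2.17 and 0 in P5 wt, and its groups overlapped in every comparison. For comparison, 3 molecules over a whole group, the limit that a count of 0 allows, correspond to 0.485 scaled counts in 1.5M KO and 0.831 in 1.5M wt, and to 0.907 for P5 KO and 0.895 for P5 wt at day 5. These limits cover counting error only.

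Casp1, the protease that cuts the interleukin-1β and interleukin-18 precursors, had no molecule in the 3 libraries of 1.5M wt. It had 1.44, 0.99 and 3.35 scaled counts in 1.5M KO, 0, 0 and 0 in 1.5M wt, 1.82, 2.91 and 4.80 in P5 KO, and 1.42, 2.17 and 2.93 in P5 wt. The 1.5M wt libraries thus lay below the other 9. Set against the limit for a count of 0 over the group, 1.5M wt was at least 2.61-fold lower than P5 wt (limma adjusted p = 0.0458). On the same limit 1.5M KO was at least 2.32-fold higher than 1.5M wt, which did not pass (limma adjusted p = 0.0819) except with a pseudocount of 0.1 (adjusted p = 0.0104) and with voom (adjusted p = 0.00611). The call between the wild-type ages was lost in 15 of 21 settings. Leaving out single libraries gave adjusted p-values of 0.0653, 0.0579 and 0.0558 for 1.5M KO libraries 1 to 3, 0.0961, 0.0991 and 0.0974 for 1.5M wt libraries 1 to 3, 0.0524 for P5 KO library 2, and 0.0577, 0.0996 and 0.141 for P5 wt libraries 1 to 3.

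Nlrp3, the sensor of the inflammasome, had 11.03, 4.97 and 5.75 scaled counts in 1.5M KO, 9.21, 4.29 and 8.88 in 1.5M wt, 4.54, 4.36 and 2.40 in P5 KO, and 2.13, 3.25 and 0.98 in P5 wt. In each genotype the 1.5-month libraries lay above the day 5 libraries, while the genotypes overlapped at both ages. It was higher in 1.5M wt than in P5 wt by 1.45 ± 0.41 on the log2 scale (SE, limma adjusted p = 0.0413), a call lost in 12 of 21 settings. Without single libraries the adjusted p was 0.0607 and 0.0634 for 1.5M KO libraries 2 and 3, 0.150 and 0.147 for 1.5M wt libraries 1 and 3, and 0.0863 and 0.158 for P5 wt libraries 1 and 3. The log2 fold change of 0.75 in 1.5M KO over P5 KO did not pass (limma adjusted p = 0.434). Pycard, which encodes the adaptor ASC, had 0.96, 4.47 and 1.92 in 1.5M KO, 1.84, 2.86 and 1.78 in 1.5M wt, 6.36, 3.64 and 3.60 in P5 KO, and 3.55, 6.51 and 1.95 in P5 wt, and its groups overlapped in every comparison.

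**Figure D3:**
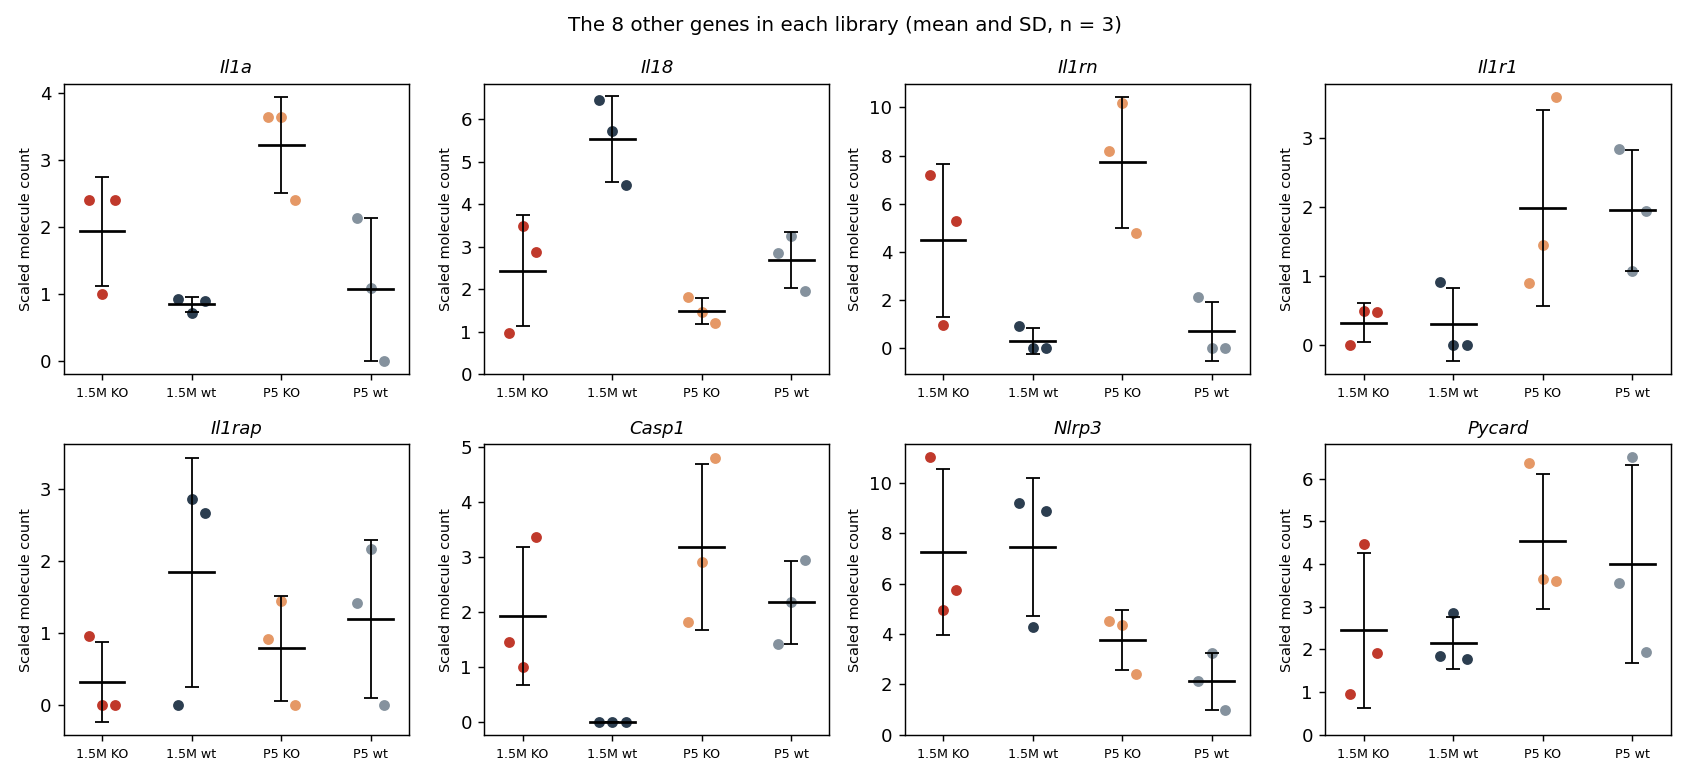
Scaled counts of the other 8 genes in each library, by group in the order 1.5M KO, 1.5M wt, P5 KO and P5 wt. Il1rn is above its wild-type libraries in the knockout at both ages, and Casp1 is at 0 in the 3 libraries of 1.5M wt.

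Counted together, 2 of the 10 members were called in 1.5M KO against 1.5M wt (Il1rn higher, Il1r2 lower), beside 5.28% of all genes tested, and 1 of 10 in P5 KO against P5 wt (Il1rn higher), beside 1.80%. With age, 4 of 10 were called in 1.5M wt against P5 wt (Il1b, Il1r2 and Nlrp3 higher, Casp1 lower), beside 5.21%, and 2 of 10 in 1.5M KO against P5 KO (Il1b and Il1r2 higher), beside 3.14%. The difference between the knockout effects was called for 1 of 10, Il1r2, beside 2.0%. The libraries of the groups did not overlap for 5 members in 1.5M KO against 1.5M wt, beside 21.1% of all genes tested, 3 in P5 KO against P5 wt, beside 12.2%, 6 in 1.5M wt against P5 wt, beside 19.2%, and 5 in 1.5M KO against P5 KO, beside 18.1%. The median log2 fold change of the 10 was 0.04 in 1.5M KO over 1.5M wt, where that of all genes tested was 0.09, and 0.28 in P5 KO over P5 wt, where that of all genes tested was −0.01. It was 0.13 in 1.5M wt over P5 wt, where that of all genes was −0.22, and −0.48 in 1.5M KO over P5 KO, where that of all genes was −0.06. Casp1, at 0 in 1.5M wt, lies on the same side of these medians when its fold change is put at the bound given above. The comparisons share groups and are not independent of each other. The members were chosen with earlier results of these data known, so these shares and medians are descriptive.

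**Figure D4:**
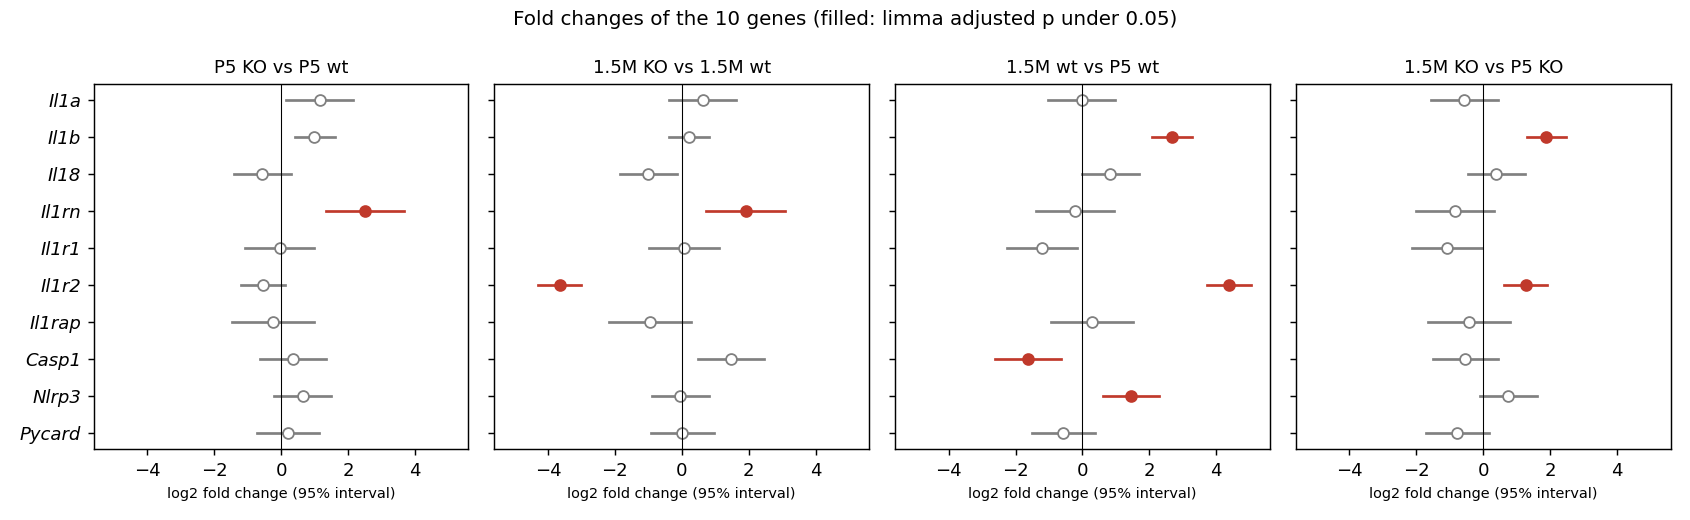
Log2 fold change of each of the 10 genes in the 4 comparisons, with 95% intervals from limma. Il1r2 is the furthest from 0, at −3.65 in 1.5M KO over 1.5M wt and 4.38 in 1.5M wt over P5 wt.

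By the shape of the profile over the 12 libraries, the genes nearest to Il1b among the 1943 compared were Ccdc36, Cd83 and Kif3a. Their root mean square difference from Il1b on the centred log2 scale was 0.39, 0.52 and 0.56, where the spread of Il1b itself was 1.27. The nearest to Il1r2, whose own spread was 1.95, were Ninl at 0.61, Sema7a at 0.63 and P2ry10 at 0.66. P2ry10 averaged 0.491 scaled counts in 1.5M KO against 38.5 in 1.5M wt, and 0 in P5 KO against 0.651 in P5 wt. The nearest to Nlrp3, with a spread of 0.73, were Lrrfip1 at 0.32, Kdm6b at 0.35 and S100a4 at 0.38. Likeness over 12 libraries in 4 groups is a description of these profiles.

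The other genes of the family and its pathway were examined as lists, which were chosen with earlier results of these data known. Of 12 other interleukin-1 family genes, 8 were above 0 in some library and 1, the inhibitory receptor gene Sigirr, could be tested, with no call by limma or voom and no unadjusted p under 0.05. Of 19 genes that carry the signal from the receptor (among them Myd88, Irak4 and Traf6), 1 was called higher in P5 KO than in P5 wt by limma, beside 1.8% of all genes tested, and 0 were by voom. The limma call was Irak3, a negative regulator, which had 0.91, 2.91 and 1.20 scaled counts in P5 KO and was at 0 in all other libraries, at least 1.87-fold higher than P5 wt. Irak3 was also the 1 gene of this list called in 1.5M KO against P5 KO, lower by limma (adjusted p = 0.0138) and voom (adjusted p = 0.000647). For all genes tested, 3.14% were called there by limma. No gene of this list was called in 1.5M KO against 1.5M wt by limma or by voom. For all genes tested, 5.28% were called there by limma and 841 of 10023 by voom. In that comparison 3 of 19 had an unadjusted p under 0.05.

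Of 26 other inflammasome genes, 19 could be tested. Casp4, which encodes the caspase that senses intracellular lipopolysaccharide, had 3.36, 1.49 and 1.44 scaled counts in 1.5M KO and was at 0 in all 1.5M wt libraries. This was at least 2.52-fold higher and was the 1 call of 19 by limma in that comparison, a share near the 5.28% of all genes tested. P2rx7, the ATP-gated channel upstream of NLRP3, was also at 0 in 1.5M wt and had 2.40, 0.99 and 0.96 in 1.5M KO, and was called by voom but not by limma. Ninj1, which encodes a membrane rupture protein, was the 1 call of 19 in 1.5M wt over P5 wt by limma, a share near the 5.21% of all genes tested, and was not called by voom. It had 6.45, 5.01 and 1.78 in 1.5M wt against 1.42, 0 and 0.98 in P5 wt. In P5 KO against P5 wt none of the 19 was called by limma or voom, beside 1.80% of all genes tested by limma. Of the 19, 1 had an unadjusted p under 0.05.

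NF-kB induces a set of genes downstream of the interleukin-1 receptor and of other receptors, and 20 of these were listed. This list too was chosen with earlier results known, so its shares and medians are descriptive. Of 17 that could be tested, limma called 4 higher in P5 KO than in P5 wt and none lower, beside 1.8% of all genes tested, and all 17 fold changes were above 0, with a median of 1.35 beside −0.01 for all genes tested. Cxcl2, a neutrophil chemoattractant, had 49.95, 90.18 and 37.20 scaled counts in P5 KO against 18.47, 3.25 and 4.88 in P5 wt. Nfkbia, which encodes the inhibitor IkBα, had 22.71, 27.64 and 32.40 in P5 KO against 14.21, 2.17 and 9.77 in P5 wt. Nfkbiz and Tnfaip3 were the other 2 called by limma, while voom called Cxcl2, Nfkbia, Nfkbiz and Ccl3. In the 4 genes called by limma the P5 KO libraries lay above the P5 wt libraries, while for Ccl3 the 2 groups overlapped. Among all genes tested, the libraries of P5 KO and P5 wt did not overlap in 12.2%. The neutrophil, keratinocyte and erythroid marker sums given beside Il1rn were measured in the same P5 KO and P5 wt libraries, and their part was not tested.

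At 1.5 months none of the 17 was called between 1.5M KO and 1.5M wt by limma, beside 5.28% of all genes tested. By voom 2 were, beside 841 of the 10023 genes tested. Of the 17, 5 had an unadjusted p under 0.05, and the median was 0.26 beside 0.09 for all genes tested. In 1.5M wt over P5 wt, 6 were higher and 1, the chemokine gene Ccl4, was lower by limma, beside 5.21% of all genes tested called, with a median of 1.42 beside −0.22. Tnfaip3, an NF-kB feedback inhibitor, had 44.23, 25.04 and 43.53 in 1.5M wt against 4.97, 4.34 and 1.95 in P5 wt, a log2 fold change of 3.04 ± 0.31 (SE, limma adjusted p = 9.03e-07). In 1.5M KO over P5 KO, limma called 2 higher and 3 lower, beside 3.14% of all genes tested. In the same comparison voom called 9 of 17, beside 808 of the 10023 genes tested. By limma the knockout effect differed between the ages for 1 of the 17, beside 2.0% of all genes tested. This was Cxcl2, which differed by −3.45 ± 0.58 on the log2 scale (SE, limma adjusted p = 0.00112). For this difference voom called Nfkbia as well, beside 331 of the 10023 genes tested.

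**Figure D5:**
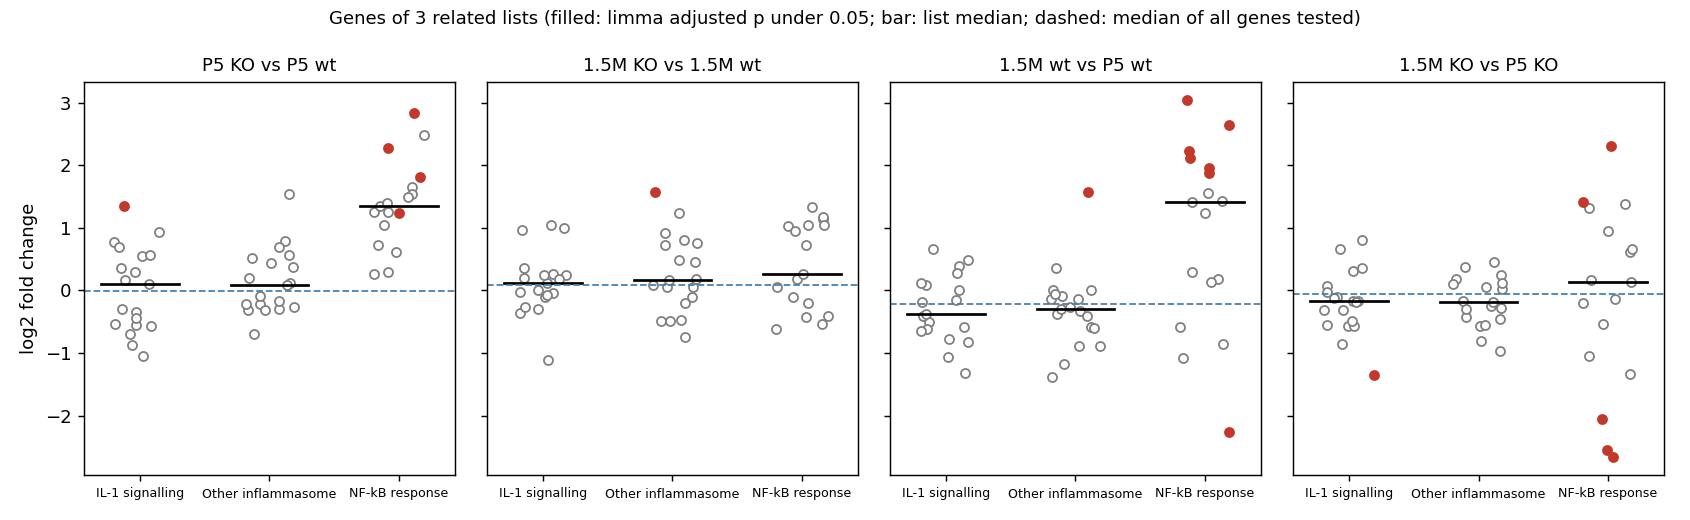
Log2 fold changes of the genes of the related lists in each comparison, with called genes marked and the median of each list drawn. The NF-kB response genes have medians of 1.35 in P5 KO over P5 wt and 1.42 in 1.5M wt over P5 wt, and the signalling list has medians of 0.11 and −0.37.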

How the data were processed

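RNA of 12 tubes of 100 sorted cells was copied with an oligo-dT primer carrying a molecular barcode, with ERCC spike-in RNA added, per the labels' protocols. TopHat2 and mm10 are named in the submitters' processing notes. The counting, scaling and use of strand are not given in the sources used here, and spike-in rows were not used here. The authors' deposited signal is a scaled molecule count with equal library totals: 92.6% to 94.9% of values above 0 in a library were whole multiples of a step, within 0.01. The main fit did not treat it as counts. Voom and thinning used counts inferred from it, each value divided by the step of its library and rounded to whole molecules.

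Genes above 0 in at least 3 of 12 libraries were fitted on the log2 scale after a pseudocount of 1 was added, by limma 3.58.1 in R 4.3.3 (4 group means, trend, two-sided, Benjamini-Hochberg over 10023 genes, threshold 0.05). Fold changes on this scale understate the change of low genes. The fit was tested on simulated data. Its criteria were reset after the first simulated run showed that many changed genes were missed, so a gene that was not called may still have changed. Alternatives were other pseudocounts, filters and scaling, thinning, voom, the 6 libraries of a comparison alone, the replicate number as a block, and each library left out.

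The members and lists were chosen with earlier results of these data known. All members were described; of each other list, at most 4 called genes per comparison, and genes at 0 in a whole group, could be named. For the 3 most abundant members, the 3 genes of nearest profile with a group mean of at least 5 were named.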

Additional observations from a re-analysis of the deposited data

Results flagged for a closer look

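The knockout effect on Il1r2 differed between the ages by −3.11 on the log2 scale (limma, 3 libraries a group), because Il1r2 was far lower in 1.5M KO than in 1.5M wt and overlapped between P5 KO and P5 wt. All 3 libraries of 1.5M KO lay below all 3 of 1.5M wt. The difference between the knockout effects on Il1r2 stayed called with each library left out in turn. No other check for single outlying libraries was made in these groups of 3.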

How the results depend on the processing

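Of the 10 members, 1 was called in P5 KO against P5 wt, but 0 with a pseudocount of 0.1 or after thinning, 2 with the stricter filter or the 6 libraries alone, and 0 to 1 leaving out a library. Without P5 KO library 1 the member called was Il1b instead of Il1rn. In 1.5M KO against 1.5M wt 2 were called, and 1 to 2 leaving out a library. The count was 1 with a pseudocount of 10, no filter, thinning or the 6 libraries alone. It was 3 with voom (Il1rn, Il1r2 and Casp1). With a pseudocount of 0.1 it was 2, but these were Il1r2 and Casp1. In 1.5M wt against P5 wt 4 were called, and 2 to 4 leaving out a library. The count was 2 with a pseudocount of 10, no filter, thinning or the 6 libraries alone. It was 3 with a pseudocount of 0.1, median-of-ratios scaling or voom. In 1.5M KO against P5 KO 2 were called, but 1 with a pseudocount of 10, thinning, voom or the 6 libraries alone, and 1 to 2 leaving out a library. The difference between the knockout effects was called for 1 member in every setting run. The cause of these shifts was not tested. Deviations of same-numbered libraries from their group means did not correlate over the genes tested (18 correlations, −0.0171 to 0.0226, with 0 over 0.1). Many of these genes hold few molecules a library, so this cannot exclude a pairing. With the replicate number as a block the counts were 1 in P5 KO against P5 wt, 2 in 1.5M KO against 1.5M wt, 4 in 1.5M wt against P5 wt, 2 in 1.5M KO against P5 KO and 1 for the difference, changing no count.

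Over all 50 pairs of member and comparison, 47 of 1040 values under an alternative changed sign, in 15 pairs, none of them among the 10 called; the largest such fold change was 1.11 on the log2 scale (Casp1, the difference between knockout effects). Which uncalled fold changes to print was chosen after their values were seen. Of those printed, Il1b in 1.5M KO over 1.5M wt ran from −0.04 without 1.5M wt library 2 to 0.39 without 1.5M wt library 1.

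Over all genes, the 180 called in P5 KO against P5 wt became 92 with a pseudocount of 0.1, 118 with no filter, 73 after thinning, and 74 at the lowest leaving out a library. The 529 in 1.5M KO against 1.5M wt became 841 with voom and 336 at the lowest leaving out a library. The 522 in 1.5M wt against P5 wt became 286 after thinning. The 315 in 1.5M KO against P5 KO became 808 with voom and 143 at the lowest leaving out a library. The 200 for the difference became 133 with a pseudocount of 0.1, 113 after thinning, 331 with voom and 115 at the lowest leaving out a library. Median-of-ratios scaling moved the median of all genes in 1.5M wt over P5 wt to −0.11, against −0.22. Members with under 5 scaled counts rest on a few molecules per library, which limits what could be called.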
